A study of Mus musculus with 12 samples.

Results

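Of 9 genes chosen as NF-κB subunits and regulators, 8 had a named row on the arrays and were followed in regulatory T cells, which hold other immune cells in check. They were Rel, Rela, Relb, Nfkb2, Nfkbia, Nfkbie, Nfkbid and Tnfaip3, 8 of the 19505 genes measured, each with 1 row. Nfkb1, which encodes p105 and p50, is not analysed here, since the annotation names no row for it. The genes were chosen by name, with earlier results of these data known. Cells sorted from lymph nodes as CD4+, CD8-, CD25+ and low for CD45RB were compared between 6 NOD mice, a strain that spontaneously develops autoimmune diabetes, and 6 mice labelled NOD.Drak2-/-. All 12 were females 4 to 8 weeks old, each array came from 1 mouse, and no treatment is given in the labels. Stk17b is the gene of Drak2, a serine/threonine kinase known to dampen T cell receptor signals. The sources used here do not say how the Drak2 allele was made.

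NF-κB is a family of dimeric transcription factors built from the subunits RelA, RelB, c-Rel and the products of Nfkb1 and Nfkb2. In resting cells inhibitors of the IκB family hold the dimers in the cytoplasm. A kinase complex called IKK marks the inhibitors for destruction, and the dimers then enter the nucleus, where they switch on many immune genes and also their own inhibitors, which ends the response. In regulatory T cells c-Rel is known for its part in inducing Foxp3 during development, and RelA for maintaining the effector state. Because the pathway is controlled mainly through its proteins, an RNA level does not measure its activity.

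Several genes of this family are known to be targets of NF-κB themselves. Promoters with a match to the κB consensus, the element that NF-κB dimers bind, are therefore shown for the genes the results turn on. RefSeq start sites of build GRCm38.p6 were listed for 7 of the 9 genes, at 12 sites, and the 250 bases before each site were searched on both strands. Of the 12 windows 8 held at least 1 match, and of the 7 genes 6 did, the exception being Rela. Among all 32851 windows of the same length 7.25% held a match, and among all 27025 genes listed 8.23% held one in at least 1 window. A match is a description of the letters, and binding was not measured here. The sequences run 5′ to 3′ along the strand of the gene and end at the base before the start site, with the matches in capitals.
Nfkbia, chr12:55492648-55492897, minus strand: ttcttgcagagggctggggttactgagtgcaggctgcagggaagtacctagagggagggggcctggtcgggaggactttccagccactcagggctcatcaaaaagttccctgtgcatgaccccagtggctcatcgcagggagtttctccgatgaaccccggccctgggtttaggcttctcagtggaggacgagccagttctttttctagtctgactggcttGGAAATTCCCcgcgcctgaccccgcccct
Tnfaip3, outer start site, chr10:19015411-19015660, minus strand: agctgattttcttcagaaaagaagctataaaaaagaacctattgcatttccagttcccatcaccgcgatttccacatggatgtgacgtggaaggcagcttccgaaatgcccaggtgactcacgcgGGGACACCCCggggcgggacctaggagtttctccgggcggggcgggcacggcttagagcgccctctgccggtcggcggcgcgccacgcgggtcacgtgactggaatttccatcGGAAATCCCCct
Rel, chr11:23770970-23771219, minus strand: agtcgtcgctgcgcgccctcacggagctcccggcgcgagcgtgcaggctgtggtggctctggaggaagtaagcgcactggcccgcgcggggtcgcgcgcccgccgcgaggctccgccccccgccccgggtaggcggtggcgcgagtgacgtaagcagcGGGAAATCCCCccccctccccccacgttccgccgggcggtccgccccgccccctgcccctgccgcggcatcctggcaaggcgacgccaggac
Nfkb2, first start site, chr19:46304487-46304736, plus strand: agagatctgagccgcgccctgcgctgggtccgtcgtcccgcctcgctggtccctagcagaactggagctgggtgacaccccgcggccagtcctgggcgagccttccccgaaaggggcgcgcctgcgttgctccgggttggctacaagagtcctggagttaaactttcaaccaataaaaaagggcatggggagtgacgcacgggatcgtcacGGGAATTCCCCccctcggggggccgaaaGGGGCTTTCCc
Nfkbid, second start site, chr7:30422156-30422405, plus strand: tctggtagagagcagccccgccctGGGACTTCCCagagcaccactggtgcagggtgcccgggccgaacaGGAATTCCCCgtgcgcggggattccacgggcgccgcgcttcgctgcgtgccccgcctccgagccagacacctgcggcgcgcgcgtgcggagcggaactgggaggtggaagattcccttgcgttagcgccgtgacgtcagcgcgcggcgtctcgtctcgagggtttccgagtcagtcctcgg
Nfkbia, which encodes IκBα, held 1 match, beginning 29 bases before the start site. Tnfaip3, which encodes the deubiquitinase A20, held 2 at its outer start site and 0 at its inner one. Nfkb2 held 3 at the first of its 3 start sites and Rel held 2 at its only site, and at both genes a pair of matches overlapped, shifted by 1 base. Nfkbid held 2 at the second of its 3 start sites and 0 at the others, and Nfkbie, not printed, held 1.

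Values are deposited log2 values of RMA, which corrects background, gives all arrays the same distribution and condenses the probes of a row to 1 value. Arrays have no read depth, and precision rests on their number, the spread between them and the signal over background. The array medians over all genes lay between 5.18 and 5.34. The brightest of 23 background rows, whose probes have no target in the genome, averaged 5.87, and 58.3% of genes averaged below it. In single arrays that row lay between 5.51 and 6.06 in NOD. In NOD.Drak2-/- replicates 1 and 2 it lay at 6.52 and 6.77 and in the other 4 arrays of that genotype at no more than 6.07, so results are given with and without these 2 arrays where they bear on them. Of the 12 measured T cell and regulatory T cell markers 11 lay above 5.87, and the list averaged 9.33 to 9.59 in NOD arrays and 9.40 to 9.58 in NOD.Drak2-/- arrays. Il2ra, the gene of the sorted marker CD25, was in the background range (4.82 and 5.00), and Foxp3 had no row named here. Of markers of other cells, 0 of 12 myeloid, 1 of 8 B cell, 1 of 4 NK cell and 2 of 6 stromal genes averaged above background. The B cell gene above it, Cd79b, averaged 5.89 in NOD and 6.37 in NOD.Drak2-/-, and the brightest of all these genes, Pecam1, averaged 9.12 and 9.23. Of the CD8 genes, Cd8a was in the background range and Cd8b1 (7.27 and 7.45) above it. The part of these cells in the results was not tested. Stk17b averaged 10.52 in NOD and 10.25 in the arrays labelled NOD.Drak2-/-, with overlapping groups (log2 difference -0.27, adjusted p = 0.517 in limma). The sources used here do not place its probes relative to the altered sequence, so it does not check the labels.

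Across the 8 genes, 0 differed between the genotypes in limma after Benjamini-Hochberg adjustment over all 19505 genes at a threshold of 0.05, where 4 genes, or 0.0205% of those tested, passed. Their adjusted p-values lay between 0.545 and 0.904. At an unadjusted p under 0.05 there were 0 of the 8, against 9.43% of all genes. For 0 of the 8 did the 6 values of one genotype lie wholly apart from the 6 of the other, against 0.513% of all genes. The differences, log2 NOD.Drak2-/- minus NOD throughout, ran from -0.32 (Tnfaip3) to 0.32 (Nfkbie), with 3 below 0 (against 54.1% of all genes) and 5 above, and their median was 0.10 beside -0.02 for all genes. That median was 0.0020 without NOD.Drak2-/- replicate 2, and -0.065 in a fit with the mean of the hybridization control rows as covariate. Among the 8128 genes above the brightest background row the median was 0.03, with 3629 below 0. The 7 of the 8 genes in that set had a median of 0.07. Tnfaip3, Nfkbia and Rel were the 3 of the 8 below 0. In cells sorted in bulk, the level per cell and the share of cells with a high level cannot be told apart.

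**Figure D1:**
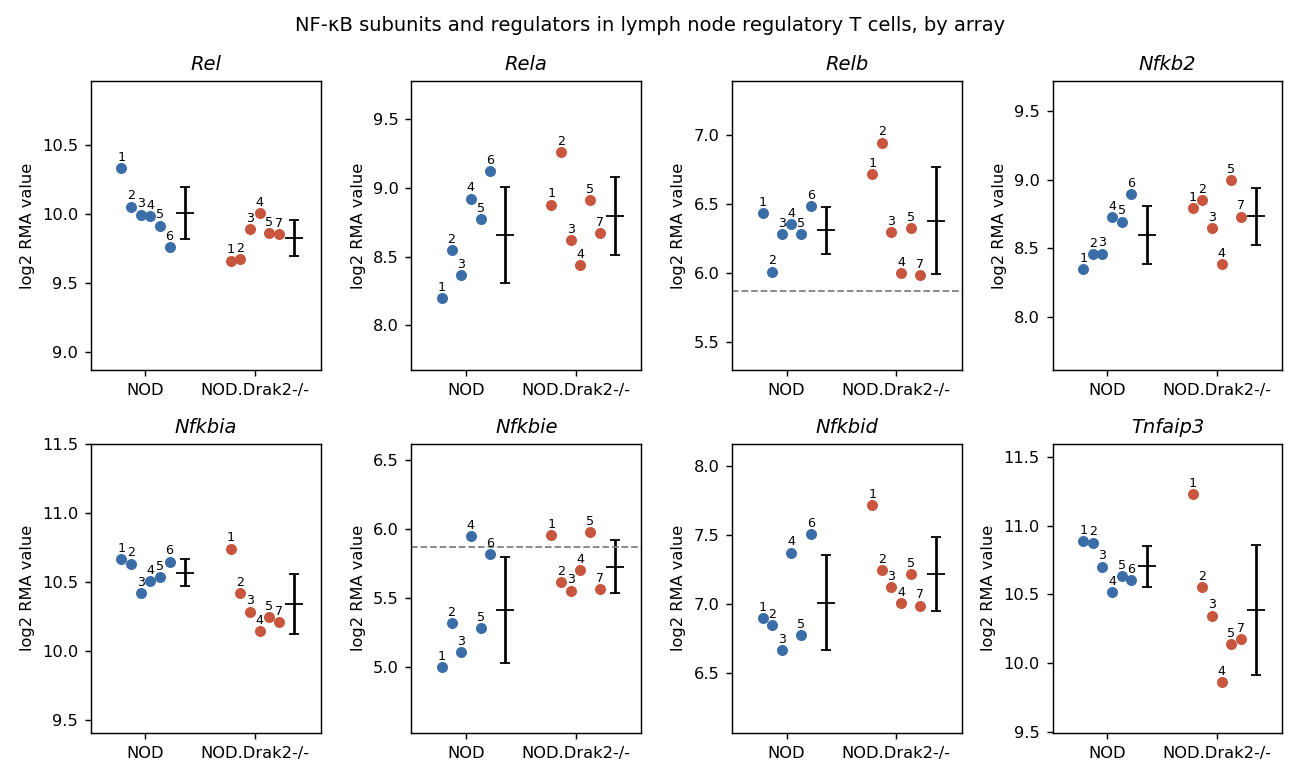
Log2 RMA values of the 8 measured genes on each of the 12 arrays (vertical axis, log2 units, each panel spanning the same width), by genotype, with the replicate number above each point; the black mark and bar are mean and SD over 6 arrays, and the dashed line is the mean of the brightest background row (5.87). NOD.Drak2-/- replicate 1 is the highest of all 12 arrays for Nfkbia, Nfkbid and Tnfaip3, and Nfkbie lies around the dashed line.

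The DNA-binding subunits with a transactivation domain came first. Rel, which encodes c-Rel, ran from 9.76 over a median of 9.99 to 10.33 in the 6 NOD arrays and from 9.66 over 9.86 to 10.01 in the 6 NOD.Drak2-/- arrays. All 6 NOD.Drak2-/- values lay below the NOD mean of 10.01 ± 0.19 (SD, n = 6), 4 of them within the NOD range. The log2 difference was -0.18 (95% interval -0.42 to 0.06, adjusted p = 0.616 in limma). The interval reaches from 0.746 to 1.04 times the NOD level. Without NOD replicate 1 the difference was -0.12. In a fit with the gap between GC-rich and GC-poor background rows as covariate it was -0.27 (95% interval -0.49 to -0.04, unadjusted p = 0.022, adjusted p = 0.316 in limma). With that covariate 13.1% of all genes were at an unadjusted p under 0.05. Rel passed the test in neither fit. Rela, the gene of the p65 subunit, ran from 8.20 over 8.66 to 9.12 in NOD and from 8.44 over 8.77 to 9.26 in NOD.Drak2-/-. The spread of 1.06 log2 units over the 12 arrays was wider than the difference of 0.14 between the genotypes (95% interval -0.22 to 0.50, adjusted p = 0.808), and 5 of the 6 NOD.Drak2-/- values lay within the NOD range. Without NOD.Drak2-/- replicate 2 the difference was 0.047, and in a fit with the mean of the hybridization control rows as covariate it was -0.020, while it was 0.29 with the GC gap as covariate, so the sign and size of Rela were not settled.

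Relb and Nfkb2 encode the partners of the alternative branch of the pathway, in which the Nfkb2 precursor is cut to its mature form and pairs with RelB. Relb ran from 6.01 over 6.32 to 6.49 in NOD and from 5.99 over 6.31 to 6.95 in NOD.Drak2-/-. The medians were nearly equal, and replicates 1 (6.72) and 2 (6.95) of NOD.Drak2-/- lay above every NOD array, the same arrays with the highest background rows (6.52 and 6.77). The log2 difference was 0.07 (95% interval -0.27 to 0.41, adjusted p = 0.904), and without those 2 arrays it was -0.16 (adjusted p = 0.773). Without replicate 2 alone it was -0.043, so the sign of Relb was not settled. Nfkb2 ran from 8.35 over 8.58 to 8.89 in NOD and from 8.39 over 8.76 to 8.996 in NOD.Drak2-/-. It differed by 0.14 (95% interval -0.13 to 0.41, adjusted p = 0.738), with 5 of 6 NOD.Drak2-/- arrays above the NOD mean and 5 of 6 within the NOD range. The difference was 0.087 without NOD replicate 1, 0.084 without NOD.Drak2-/- replicate 5 and 0.21 without NOD.Drak2-/- replicate 4, and 0.027 when the hybridization control mean was fitted as covariate.

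The inhibitors gave differences in both directions. Nfkbia, whose product IκBα is resynthesised after each burst of NF-κB activity, ran from 10.42 over 10.58 to 10.67 in NOD. In NOD.Drak2-/- it ran from 10.14 over 10.27 to 10.74. The NOD arrays were close together (10.57 ± 0.10, SD, n = 6) and those of NOD.Drak2-/- further apart (10.34 ± 0.22, SD, n = 6), with 4 of 6 below every NOD array and replicate 1 above every NOD array. The log2 difference was -0.23 (95% interval -0.47 to 0.02, 0.854-fold, unadjusted p = 0.0649, adjusted p = 0.545 in limma). Without NOD.Drak2-/- replicate 1 it was -0.31 (unadjusted p = 0.00897, adjusted p = 0.555 in limma). In that fit 8.34% of all genes were at an unadjusted p under 0.05. Without NOD.Drak2-/- replicate 4, the lowest array, the difference was -0.19 (unadjusted p = 0.134, adjusted p = 0.498 in limma). The adjusted p passed in none of these fits.

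Nfkbie, the gene of the inhibitor IκBε, ran from 5.00 over 5.30 to 5.95 in NOD and from 5.55 over 5.66 to 5.98 in NOD.Drak2-/-. It lay above its own array's brightest background row in only 2 of 12 arrays, NOD replicate 4 and NOD.Drak2-/- replicate 4. All 6 NOD.Drak2-/- values lay above the NOD mean of 5.41, but the level is in the background range in both genotypes, and the log2 difference of 0.32 (95% interval -0.03 to 0.66, adjusted p = 0.555) gives no measured change of the gene. Nfkbid encodes IκBNS, an atypical nuclear member of the IκB family known to assist c-Rel in inducing Foxp3. It ran from 6.66 over 6.87 to 7.50 in NOD and from 6.99 over 7.17 to 7.72 in NOD.Drak2-/-. Of the 6 NOD.Drak2-/- arrays 5 lay within the NOD range, and the log2 difference was 0.21 (95% interval -0.14 to 0.56, adjusted p = 0.699). Without NOD.Drak2-/- replicate 1, the highest array, it was 0.11.

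Tnfaip3 encodes A20, an enzyme that edits ubiquitin chains upstream of IKK and whose loss in mice causes inflammation. In NOD it ran from 10.52 over 10.67 to 10.89. In NOD.Drak2-/- it ran from 9.87 over 10.26 to 11.23, the widest range of the 8 genes. The pattern resembles that of Nfkbia, with 4 of 6 NOD.Drak2-/- arrays below every NOD array and replicate 1 above them all. The mean was 10.70 ± 0.15 in NOD and 10.39 ± 0.47 in NOD.Drak2-/- (SD, n = 6 each), a log2 difference of -0.32 (95% interval -0.70 to 0.07, 0.802-fold, unadjusted p = 0.0999, adjusted p = 0.595 in limma). Without replicate 1 of NOD.Drak2-/- the difference was -0.49 (unadjusted p = 0.00229, adjusted p = 0.507 in limma), over 1.5 times as large. Without replicate 4 of NOD.Drak2-/-, the lowest array, it was -0.21 (unadjusted p = 0.241, adjusted p = 0.61 in limma). Without replicates 1 and 2 the genotypes no longer overlapped for 2 of the 8 genes, Nfkbia (-0.35, adjusted p = 0.499) and Tnfaip3 (-0.57, adjusted p = 0.44), where 1.79% of all genes were apart with these 10 arrays. The replicates were left out after the values were seen, and 0 of the 8 genes passed in that fit. In it the difference was -0.10 for Rel, 0.0031 for Rela, 0.09 for Nfkb2, 0.07 for Nfkbid and 0.29 for Nfkbie.

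**Figure D2:**
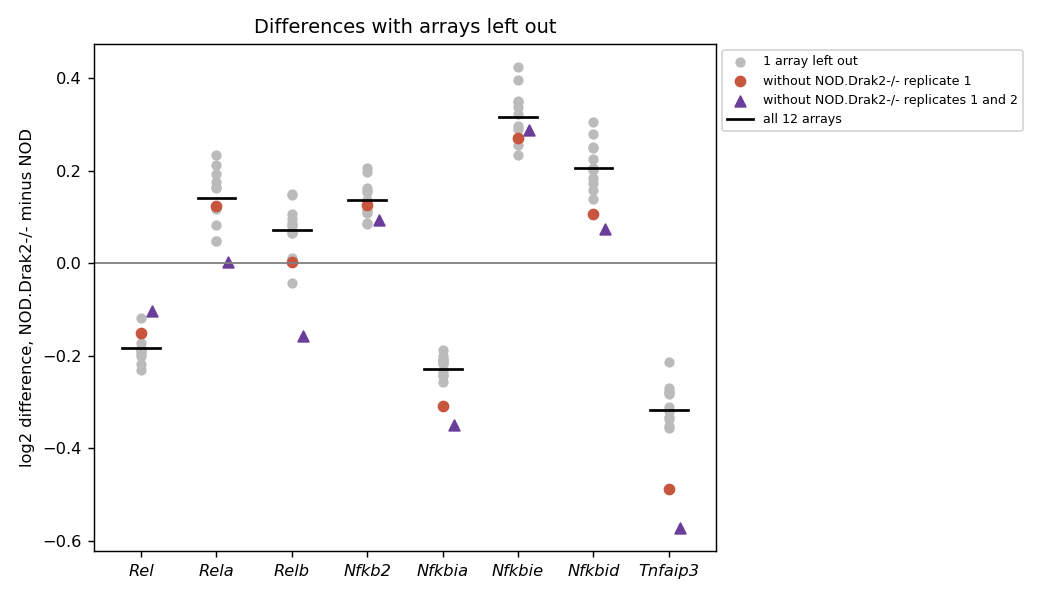
Log2 difference of each gene (vertical axis, NOD.Drak2-/- minus NOD) with all 12 arrays (black line), with each array left out in turn (grey), without NOD.Drak2-/- replicate 1 (red) and without replicates 1 and 2 of that genotype (triangles). Relb crosses 0, and every other gene keeps its sign in all fits shown. Nfkbia and Tnfaip3 reach -0.35 and -0.57 in the last.

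The genes did not vary together as 1 block. The pairs named here and in the next paragraph were picked from all pairs of these genes after the values were seen. They were not compared with pairs of other genes. Set against its own genotype mean, Rela lay on the same side as Nfkb2 in 12 of 12 arrays. Rel lay on the opposite side from Rela in 10 of 12 arrays, from Nfkb2 in 10 and from Nfkbid in 10. NOD replicate 1, for example, had the highest Rel (10.33) and the lowest Rela (8.20), Nfkb2 (8.35) and Nfkbie (5.00) of all 12 arrays. The difference between GC-rich and GC-poor background rows, a property of the hybridisation, was 2.60 log2 units in that array and ran up to 3.10 in NOD replicate 6, where Rel was lowest in NOD (9.76) and Rela highest (9.12). In NOD.Drak2-/- replicate 4, with the highest Rel (10.01) and the lowest Rela (8.44) of its genotype, it was 2.61. Replicates 5 and 7 of that genotype had 2.65 and 2.61 with Rel at 9.86 and 9.85. NOD replicate 2 had 3.09, close to NOD replicate 6, but with Rel (10.05) above and Rela (8.55) below the NOD mean. The part of that property in the pattern was not tested.

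Nfkbia and Tnfaip3 lay on the same side of their genotype means in 11 of 12 arrays, 5 of 6 in NOD and 6 of 6 in NOD.Drak2-/-. Rel and Tnfaip3 were on the same side in 6 of 6 NOD arrays and in 0 of 6 NOD.Drak2-/- arrays, a contrast picked from 28 pairs after the values were seen and not tested. NOD.Drak2-/- replicate 1 had 7 of the 8 genes above its genotype mean, the exception being Rel, and was the highest of 12 arrays for Nfkbia, Nfkbid and Tnfaip3. Replicate 4 of NOD.Drak2-/- had 7 of the 8 below the mean and was the lowest of 12 for Nfkbia and Tnfaip3. Genes induced by heat shock and cell dissociation, of which 15 of 17 measured lay above background, averaged 7.93 to 8.26 in NOD. In NOD.Drak2-/- they averaged 8.38 in replicates 1 and 2, 8.22 in 3, 7.92 in 4, 7.98 in 5 and 8.00 in 7. NOD replicate 1 had the lowest such mean of NOD (7.93) with the highest Nfkbia (10.67) and Tnfaip3 (10.89) of NOD. The part of dissociation in the pattern was not tested. With the mean of these dissociation genes as a covariate the difference was -0.26 for Nfkbia (adjusted p = 0.469) and -0.38 for Tnfaip3 (adjusted p = 0.473). It was 0.080 for Rela and 0.011 for Relb.

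**Figure D3:**
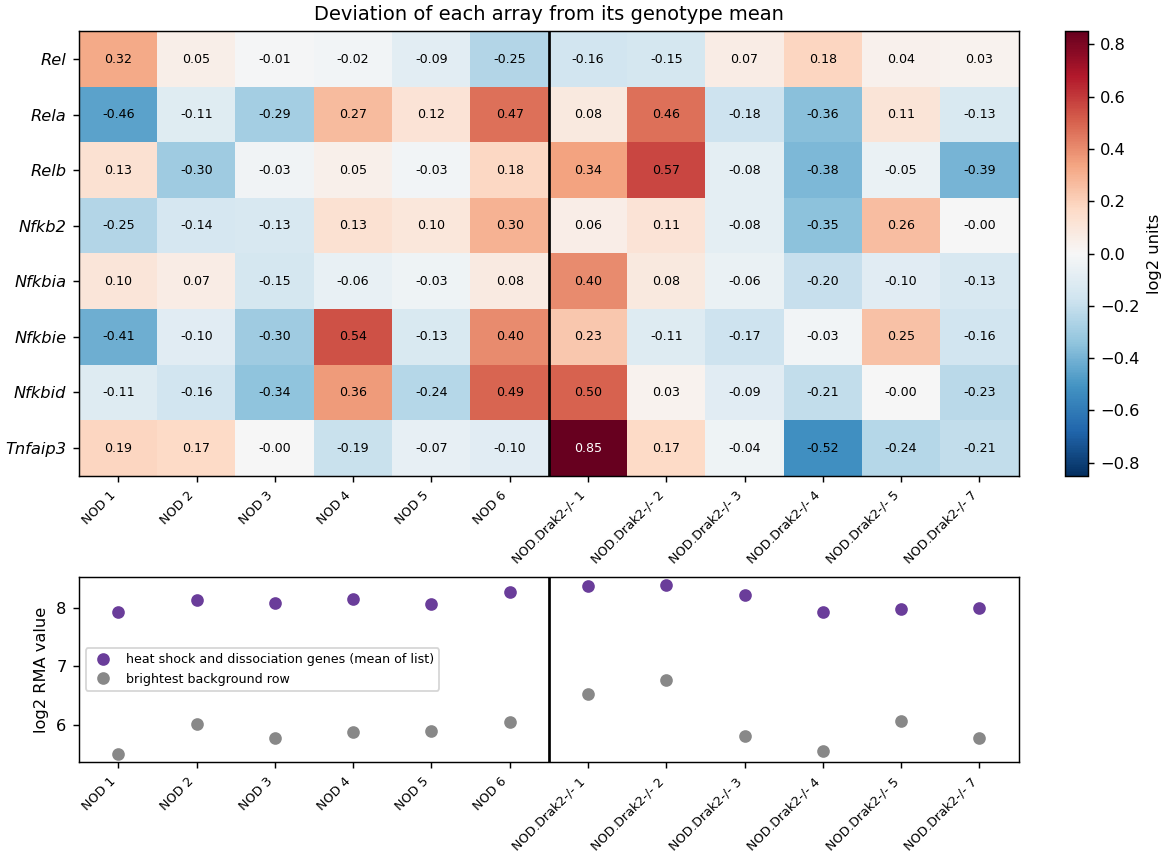
Upper panel, the deviation of each gene in each array from the mean of its genotype (colour and printed value, log2 units). Lower panel, the mean of the heat shock and dissociation genes and the brightest background row of the same arrays (log2 RMA value). NOD.Drak2-/- replicate 1 stands 0.85 above its genotype mean for Tnfaip3 and replicate 4 stands 0.52 below it, and the row of Rel runs opposite to that of Rela in 10 of 12 arrays.

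The genes most alike in pattern were sought among the 8128 genes above the brightest background row, by the root mean square over 12 arrays of the difference between both genes' deviations from their genotype means. They are given for the 3 genes with the widest spread within genotypes. For Tnfaip3, whose own deviations had a root mean square of 0.321, the closest were Rgs2 (0.151), a regulator of G protein signalling, Mdfic (0.159) and Irs2 (0.160), an adaptor of insulin signalling. Rgs2 also averaged lower in NOD.Drak2-/- (log2 difference -0.47, adjusted p = 0.504), beside 0.09 for Mdfic and -0.02 for Irs2. For Rela, with 0.290, the closest were the decapping enzyme gene Dcps (0.0871), the helicase gene Ruvbl2 (0.0889) and Ranbp3 (0.0933). For Nfkbid, with 0.281, they were the antiviral gene Zc3hav1 (0.108), Chrac1 (0.116) and the kinase gene Map3k11 (0.118).

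Other genes of the pathway gave a like picture, with 0 of 61 measured members of 5 lists past the threshold in either direction in limma. At an unadjusted p under 0.05 there were 6, with 3 above and 3 below 0, beside 9.43% of all genes. The 61 had a median log2 difference of 0.05, with 35 above 0. Among all genes above the brightest background row the median was 0.03, with 4499 of 8128 above 0. Of the remaining IκB proteins, Bcl3, an atypical IκB that binds p50 and p52 homodimers in the nucleus, ran from 5.76 to 6.90 in NOD and from 6.43 to 7.43 in NOD.Drak2-/-. Its log2 difference was 0.51 (95% interval 0.05 to 0.98, adjusted p = 0.512), with 3 of 6 NOD.Drak2-/- arrays above every NOD array. Bcl3 is near background. It lay below its own array's brightest background row in NOD replicate 4 (5.76 beside 5.88) and NOD.Drak2-/- replicate 2 (6.43 beside 6.77). The log2 difference was -0.05 for the nuclear inhibitor gene Nfkbiz (adjusted p = 0.911) and -0.05 for Nfkbib, the gene of IκBβ (adjusted p = 0.925).

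Among 8 genes of the IKK complex and the branch of the kinase NIK, 0 were at an unadjusted p under 0.05, beside 9.43% of all genes. Their median was 0.11. Ikbkb, a catalytic subunit of IKK, differed by 0.12 (adjusted p = 0.815), and Map3k14, the NIK gene, by 0.22 (adjusted p = 0.738). The IKK scaffold gene Ikbkg (3.74 and 4.14) was in the background range. Birc3, a ubiquitin ligase gene and NF-κB target, differed by -0.23 (adjusted p = 0.685). Chuk and Traf3 had no row named here.

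In the relay from the T cell receptor through Bcl10 and Malt1 to the kinase TAK1, 9 listed genes were measured, with a median of -0.01. Traf6, a ubiquitin ligase that activates TAK1, ran from 7.51 to 7.92 in NOD and from 7.37 to 7.53 in NOD.Drak2-/-. Of the 6 NOD.Drak2-/- arrays 5 lay below every NOD array, and the log2 difference was -0.34 (95% interval -0.55 to -0.12, adjusted p = 0.469 in limma). Malt1, a paracaspase that also cleaves A20, differed by 0.20 (adjusted p = 0.618), and Bcl10 by 0.11 (adjusted p = 0.816). Ripk1 had no row named here.

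Of 14 genes that edit or build ubiquitin chains, 2 were at an unadjusted p under 0.05, on opposite sides, beside 9.43% of all genes. Tnip3, a partner of A20, ran from 7.97 to 8.70 in NOD and from 7.51 to 8.12 in NOD.Drak2-/-, with all 6 below the NOD mean (log2 difference -0.41, adjusted p = 0.469). N4bp1, a known inhibitor of NF-κB signalling, differed by 0.29 (adjusted p = 0.517). The deubiquitinase gene Cyld differed by 0.05 (adjusted p = 0.909) and Tnip1, which encodes another partner of A20, by 0.13 (adjusted p = 0.724).

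Of 27 measured genes known as NF-κB targets in lymphocytes, 16 averaged higher in NOD.Drak2-/- and 11 lower. Their median was 0.06, beside 0.03 for all genes above the brightest background row. Gadd45b, a stress-response gene, ran from 8.44 to 9.16 in NOD and from 7.71 to 8.90 in NOD.Drak2-/-. As with Tnfaip3, replicate 1 (8.90) was the highest of NOD.Drak2-/-, but here it lay below the highest NOD array (9.16). The other 5 arrays lay below every NOD array, where Tnfaip3 had 4 such arrays. The log2 difference of Gadd45b was -0.56 (95% interval -0.96 to -0.17, adjusted p = 0.469). Cd40lg, the gene of the CD40 ligand, differed by 0.31 (adjusted p = 0.52), with all 6 arrays above the NOD mean. The difference was 0.21 for the adhesion gene Icam1 (adjusted p = 0.672) and -0.20 for the survival gene Bcl2l1 (adjusted p = 0.764). It was 0.17 for the signalling adaptor gene Traf1 (adjusted p = 0.777) and 0.13 for the costimulatory receptor gene Tnfrsf9 (adjusted p = 0.788). For 0 of the 27 genes did the genotypes lie wholly apart, Gadd45b and Cd40lg included, against 0.513% of all genes.

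**Figure D4:**
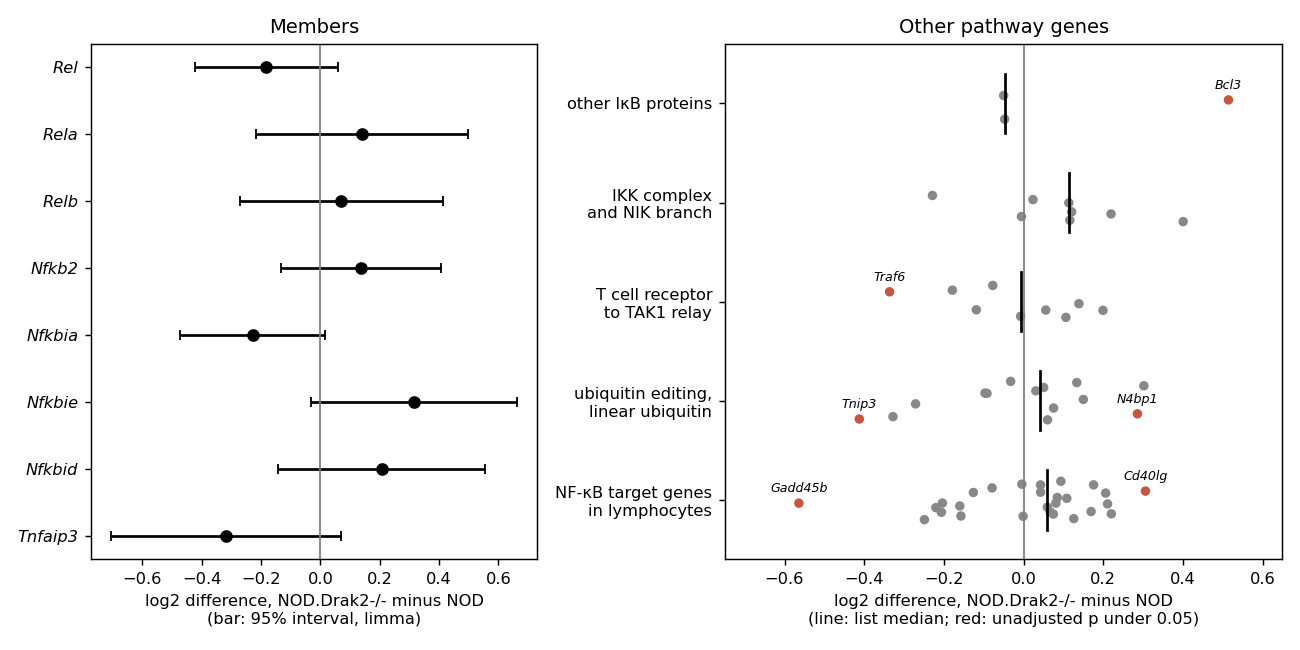
Log2 differences, NOD.Drak2-/- minus NOD (horizontal axes), of the 8 genes with their 95% intervals in limma (left) and of 61 other pathway genes in 5 lists (right; black lines are list medians, red points have an unadjusted p under 0.05 and are named). All 8 intervals on the left include 0, and the list medians on the right lie between -0.05 and 0.11.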

How the data were processed

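Expression was measured on 12 arrays of 1 colour, 6 per genotype, with groups taken from the labels. Per the labels' protocols, 125 ng of RNA from sorted cells was made into labelled cDNA with a whole-transcript kit. The authors' deposited values are on a log2 scale. The submitters' processing notes name RMA and oligo, an R package, with no versions. From 29129 rows, the 19572 with 1 gene symbol in the platform annotation were used, and the brightest row per gene was kept (19505 genes, no filter on dim genes). The genotypes were compared with lmFit and eBayes of limma 3.58.1 (R 4.3.3), with genotype as the sole term, adjusted by Benjamini-Hochberg over all genes, threshold 0.05, with steps tested on simulated data. Every adjusted p is from that fit unless another setting is named. The members, lists, alternatives and the rule for named genes (all members, set pathway genes, the 2 smallest p-values per list, the most alike genes) were chosen with earlier results of these data known. Same-numbered arrays of the genotypes had correlations of deviations between -0.18 and 0.09 across genes, so the numbers were not used as pairs.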

Additional observations from a re-analysis of the deposited data

Results flagged for a closer look

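In NOD.Drak2-/- the Nfkbid value of replicate 1 (7.72) stood away from the other 5 arrays, which lay between 6.99 and 7.24. The gap to the nearest array was 0.648 of the whole range of the 6 values, above Dixon's 95% critical value for 6 samples. Chance gives such a gap in about 1 of 20 groups, and 16 groups were looked at.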

How the results depend on the processing

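Of 24 other settings, 12 left out 1 array each. In all of them 0 members and 0 other pathway genes passed, and 186 of 191 member values kept their sign. The 5 exceptions were Rela with the hybridization controls as a covariate (-0.020), and Relb with that covariate (-0.11), with array weights (-0.0042), without NOD.Drak2-/- replicate 2 (-0.043) and without replicates 1 and 2 of that genotype (-0.16); their cause was not tested. With 1 array left out, Relb lay between -0.043 and 0.15. The last setting, chosen after seeing the data, set 2 members apart between the genotypes and gave the members a median of -0.05. Genes called over the whole table numbered 4. They numbered 1 to 2 with 1 array left out, 2 without those 2 arrays, 2 with the hybridization controls, 7 with the GC difference of background rows, 1 with the B cell mean and 0 in the ordinary linear model. With the replicate block 0 genes passed, and Nfkbia differed by -0.19, Tnfaip3 by -0.30 and Rela by 0.26; 0 of 5 NOD arrays matched the NOD.Drak2-/- array of its own number best. Nfkbie has no value among genes above background, and among the members signal over background limits Nfkbie and Relb.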
